A study of Mus musculus with 15 samples.

Results

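The translation initiation and elongation factor genes of RAW 264.7 cells were followed over 5 days of culture with or without RANKL. A gene was counted where the symbol of a probe set's single annotated gene began with Eif or Eef, leaving out the interferon-induced kinase gene Eif2ak2. The brightest probe set of each gene, by mean log2(signal + 32) over all arrays, stood for it. This gave 48 genes with 65 probe sets, out of 8251 genes and 12422 probe sets in the series. The rule itself reads symbols and brightness. RAW 264.7 is a mouse macrophage-like cell line, and RANKL is the ligand of the receptor RANK, through which such cells become osteoclasts, the multinucleated cells that resorb bone.

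RANKL cells gave 1 array at day 1 and 2 arrays at each of days 2, 4 and 5. Control cells, cultured for the same times without RANKL, gave 1 array at day 1, 2 at each of days 2, 3 and 4, and 1 at day 5. All cells were grown in alpha-MEM with 10% FBS, and both arms were handled with serum-free alpha-MEM, holding RANKL or not, on days 0 and 3. By the labels the RANKL cells of days 4 and 5 were multi-nuclear and those of days 1 and 2 mononuclear, as were all control cells. No RANKL array of day 3 was used here. Whether the arrays of a group come from different cultures is not stated, and p-values then measure only the spread between arrays, which may be technical.

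Initiation begins when eIF2 brings the initiator methionyl-tRNA to the small ribosomal subunit, where eIF1, eIF1A, eIF3 and eIF5 hold it while the messenger RNA is scanned for a start codon. The cap-binding complex eIF4F, made of the cap-binding protein eIF4E, the scaffold eIF4G and the RNA helicase eIF4A, recruits the messenger, and eIF5B joins the large subunit. Elongation then runs on eEF1A, which delivers aminoacyl-tRNA, and eEF2, which moves the ribosome along. The pathway is mostly controlled on the proteins, through the eIF2 kinases, the exchange factor eIF2B, the eIF4E-binding proteins and eEF2 kinase. The arrays measured only RNA levels. In RNA from whole cultures, fewer cells of a type and less RNA per cell cannot be told apart.

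Values are MAS5 signals on a linear scale. Each deposited array has a 2% trimmed mean of 500. The 2 arrays of a group correlated at r = 0.975 to 0.984. All 7 macrophage markers were represented, and their summed signal ran from 29373 to 57987 on RANKL arrays and from 46873 to 61518 on control arrays. Within that sum 3 of the 7 (Adgre1, Itgam and Fcgr1) were lower with RANKL over days 1, 2, 4 and 5. With culture time 2 were higher in RANKL cells (Adgre1 and Itgam) and 3 in control cells (the same and Fcgr1). The integrin gene Itgam had 279 to 1154 on the RANKL arrays of days 4 and 5, against 42.4 to 128 on those of days 1 and 2, and in control cells 1218 to 1385, against 142 to 297. Their part in the factor genes' changes with culture time was not tested. Of 6 osteoclast markers, 4 were higher with RANKL over days 1, 2, 4 and 5 and 0 lower. Among them Acp5 and Ctsk were higher by 4.33 ± 0.21 and 2.57 ± 0.15 log2 (limma, adjusted p = 1.58e-06 and 7.19e-06). Calcr and Itgb3 were dim, with 1.77 to 27.2 and 8.42 to 78.2 over all arrays, and did not pass. At day 1, 0 of the 6 passed and 1 difference was positive, with Acp5 at 535 with RANKL and 992 in control cells. The 16 represented markers of erythroid, neutrophil, lymphoid and stromal cells summed to between 1845 and 2252 on RANKL arrays and between 1581 and 2343 on control arrays, and 0 of them changed in any comparison. On the first principal component of all probe sets, RANKL day 5 replicate 2 lay at -10.6, between the early arrays (-44.2 to -17.5) and the other arrays of days 3 to 5 (12.8 to 32.8).

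The factor genes were measured with unequal brightness, which reflects each probe set and gives no order of abundance between genes. The mean level was at least 100 for 42 genes, such as Eef1a1 with 18691 to 32659 on RANKL arrays and 18772 to 28476 on control arrays. A mean level below 100 was found for 6 genes. These were the cap-binding protein gene Eif4e, its transporter Eif4enif1, the helicase cofactor Eif4h, the hypusinated factor Eif5a, the eEF1 subunit gene Eef1g and the kinase gene Eef2k. Eif4e signals were 41.2 to 68.2 with RANKL and 45.9 to 92.5 in control cells, and Eef1g signals stayed below 15.1 on every array. Among these 6 dim genes, 0 passed the test in any comparison, and their signals carry little information on change.

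**Figure D1:**
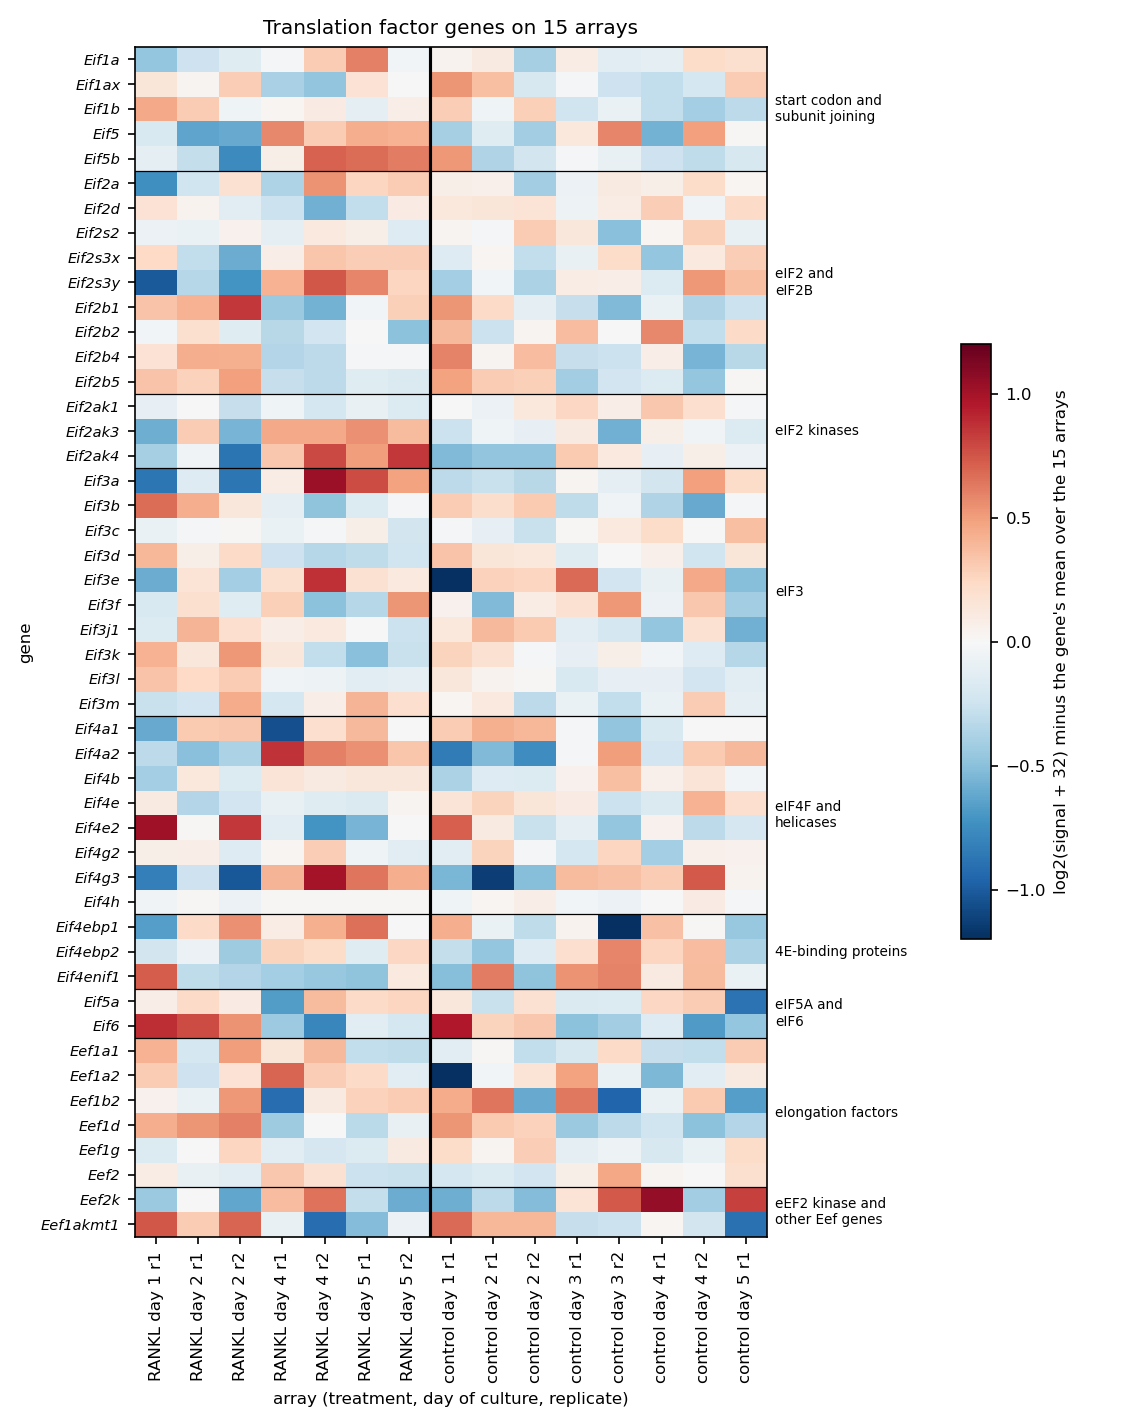
Each row is a translation factor gene and each column an array, RANKL arrays left and control arrays right, in order of day. Colour gives log2(signal + 32) minus the gene's mean over the 15 arrays and stops at the ends of the scale; rows are grouped by role. Eif6, Eef1d and Eef1akmt1 are red on days 1 and 2 and mostly blue later in both arms, and Eif4a2 and Eif4g3 show the opposite.

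The effect of RANKL was read first, as RANKL minus control at the same day, in a limma fit over all 15 arrays with adjustment over all 12422 probe sets. Over days 1, 2, 4 and 5 together, 0 of 48 factor genes passed an adjusted p of 0.05, against 1.09% of all probe sets. The median difference of the 48 genes was 0.07 log2 (lowest -0.30, highest 0.57), beside 0.01 for all probe sets, and 2 genes had an unadjusted p below 0.05 (11.1% of all probe sets). Of the 48 differences 32 were positive. Leaving out control day 5 replicate 1, the only control array of that day, dropped day 5 from both arms. Over days 1, 2 and 4 the median was then -0.011 with 23 positive, so its sign depended on the days included. Without control day 4 replicate 1 the median was 0.045 with 28 positive. By day, 0 of 48 genes passed at day 1 (all probe sets 0%), at day 2 (0.853%), at day 4 (0.266%) and at day 5 (0.918%). Unadjusted p-values below 0.05 were found for 2, 1, 6 and 3 of the genes on these days (all probe sets 5.86%, 10.1%, 8.13% and 14.2%), and the smallest adjusted p was 0.215, for Eif5b at day 5. At a background near 1%, a count of 0 in 48 is close to what all probe sets gave, and at day 1, with 1 array against 1, no probe set passed at all.

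The genes with the largest RANKL differences show how far the arrays went. Eef1a2, a form of eEF1A known mainly from muscle and neurons, had signals of 153 at day 1, 94.3 and 137 at day 2, 212 and 152 at day 4 and 143 and 105 at day 5 in RANKL cells. In control cells it had 28.7 at day 1, 114 and 136 at day 2, 70.7 and 105 at day 4 and 129 at day 5. The control day 1 array was the lowest of all, the day 4 arrays did not overlap and the day 2 arrays did; the difference over the 4 days was 0.57 ± 0.19 (adjusted p = 0.229). Without the control day 1 array, which dropped day 1 from both arms, the difference was 0.22 over days 2, 4 and 5. Over the alternatives it ran from 0.22 to 0.80. Eif4a2, the second form of the eIF4A helicase, differed by 0.37 ± 0.13 (adjusted p = 0.295) and Eif2ak4, the amino acid sensing eIF2 kinase GCN2, by 0.37 ± 0.19 (adjusted p = 0.525). The most negative differences belonged to the eIF2B subunit gene Eif2b2 at -0.30 ± 0.17, to the helicase gene Eif4a1 at -0.28 ± 0.19 and to Eif4e at -0.27 ± 0.17 (adjusted p = 0.58, 0.685 and 0.646).

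**Figure D2:**
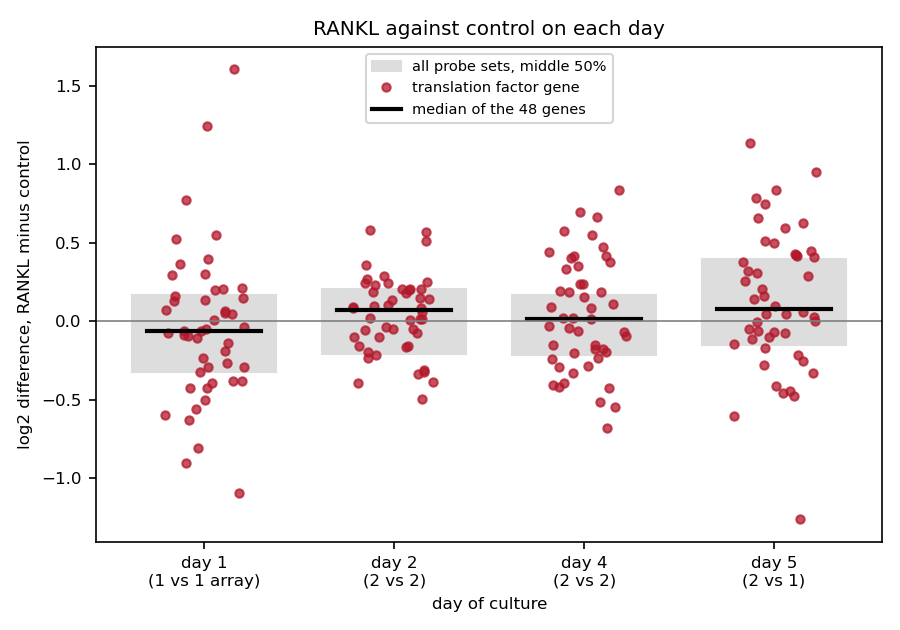
Each point is a translation factor gene and its RANKL minus control difference in log2(signal + 32) on the day given on the horizontal axis; the black bar is the median of the 48 genes and the grey box the middle 50% of all probe sets. The medians were -0.06, 0.07, 0.02 and 0.08 at days 1, 2, 4 and 5. The highest point was at day 1 (1.60), where each arm has 1 array, and the lowest at day 5 (-1.26). The median absolute difference was 0.28 at day 1 and 0.31 at day 5.

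Whether the RANKL difference itself moved between early culture (days 1 and 2) and late culture (days 4 and 5) was tested as an interaction. Again 0 of 48 genes passed, against 0.0403% of all probe sets, and 2 had an unadjusted p below 0.05 (8.03%). Eif5b, the GTPase that joins the ribosomal subunits, came nearest at 1.18 ± 0.28 (adjusted p = 0.333). Its signals were 462 and 738 at day 4 and 721 and 690 at day 5 in RANKL cells, against 366 and 349 at day 4 and 381 at day 5 in control cells. At day 1 it had 406 with RANKL and 647 in control cells, and at day 2 it had 355 and 247 with RANKL and 337 and 372 in control cells. The late arrays of the arms did not overlap, with RANKL above control, and at day 1 the order was the opposite. The next largest values were 0.80 ± 0.39 for the eIF3 scaffold gene Eif3a and 0.72 ± 0.40 for Eif2ak3, which encodes the endoplasmic reticulum stress kinase PERK (adjusted p = 0.635 and 0.673). The most negative were -0.81 for Eif4enif1, -0.65 for Eef2k and -0.59 for Eif4e2 (adjusted p = 0.617, 0.771 and 0.718), the first pair on dim probe sets. Leaving out the day 1 array of either arm left day 2 alone as early, and the Eif4enif1 value was then 0.004. Leaving out control day 5 replicate 1 left day 4 alone as late, and the Eef2k value was then 0.075.

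Culture time gave a different count. In RANKL cells, late culture was set against early culture as the mean of days 4 and 5 minus the mean of days 1 and 2, and 16 of 48 factor genes changed, 7 higher and 9 lower. This was 33.3% of the genes beside 14.8% of all probe sets, of which 8.98% were higher and 5.82% lower. In control cells the same comparison called 8 of 48, 2 higher and 6 lower, or 16.7% beside 10.9% (5.98% higher and 4.87% lower). Unadjusted p-values below 0.05 were found for 24 genes in RANKL cells (27.9% of all probe sets) and for 14 in control cells (24%). Bright probe sets are called more often, so the fairer background is the 6646 probe sets with a mean level of at least 100. Of these 24.8% were called with culture time in RANKL cells, beside 16 of 42 factor genes (38.1%). In control cells the shares were 18.3% of the bright probe sets and 8 of 42 genes (19%), so the control count lies at the background. The median change of the 48 genes was 0.00 in both arms (all probe sets 0.047 in RANKL cells and -0.045 in control cells), with 24 genes above and 24 below 0 in each arm. In RANKL cells the late arrays lay wholly above the early ones for 10 genes (background 11.8%) and wholly below for 11 (8.24%), and in control cells for 7 (12.5%) and 9 (13.4%).

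Both arms called 6 genes, which are 37.5% of the genes called in RANKL cells and 75% of those called in control cells. Over all genes of the series the shares were 44.8% and 62.2%, above the factor genes' share in RANKL cells and below it in control cells. These were Eif6, Eef1d, Eef1akmt1 and Eif2b5, which fell, and Eif4a2 and Eif4g3, which rose. Of the 16 genes called in RANKL cells, 15 had the same sign in control cells, and the exception was Eif5b. All genes of the series did likewise, with 94.3% of those called in RANKL cells sharing the sign. The changes of the 48 genes in RANKL and in control cells correlated at r = 0.761 (Spearman 0.741), across genes that are not independent and share the same arrays within an arm. Over all 8251 genes the values were 0.675 and 0.597.

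**Figure D3:**
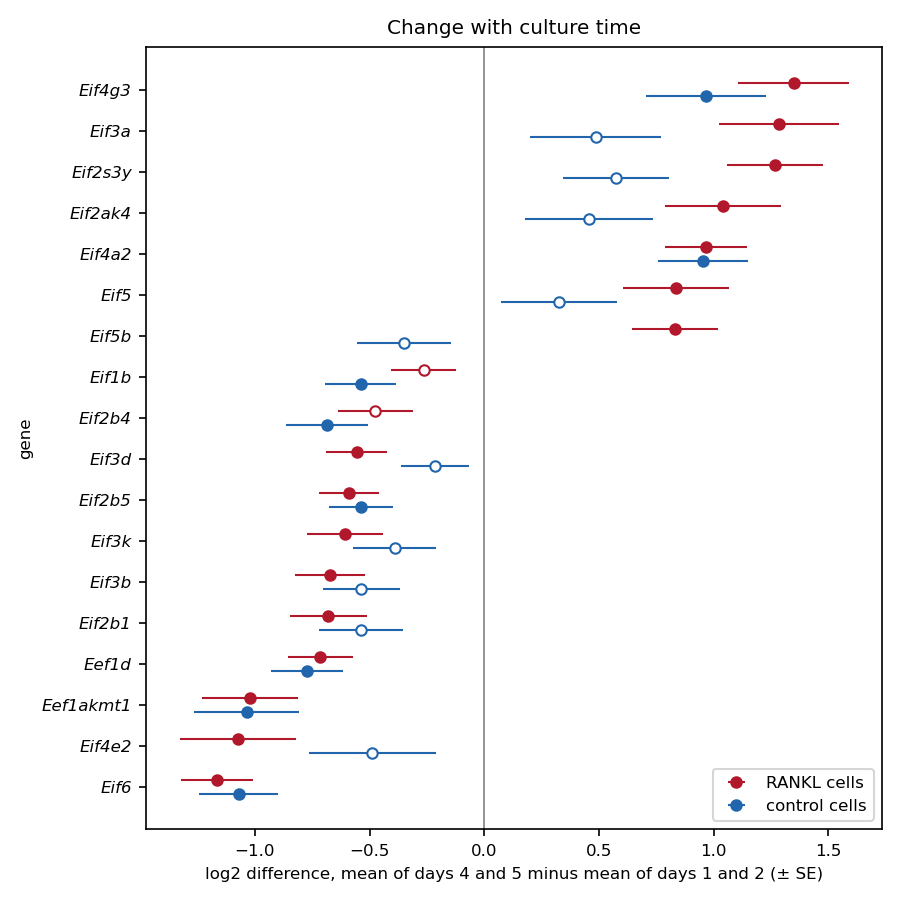
Points give the change with culture time (days 4 and 5 minus days 1 and 2) in log2(signal + 32) with its standard error, for the 18 factor genes called in either arm, RANKL cells in red above and control cells in blue below. Filled points passed an adjusted p of 0.05 and open points did not. Eif4g3 rose most and Eif6 fell most in RANKL cells, and Eif5b lies on opposite sides of 0 in the arms.

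Of the 6 genes called in both arms, 4 fell and 2 rose. Eif6 (94826_at, chr2:155819837-155826925 in GRCm38.p6) encodes eIF6, which keeps the large ribosomal subunit apart from the small one and takes part in making that subunit. In RANKL cells its signals were 2032 and 1588 at day 4 and 2497 and 2381 at day 5, against 5131 at day 1 and 4758 and 4011 at day 2. In control cells they were 2479 and 1708 at day 4 and 1991 at day 5, against 5401 at day 1 and 3332 and 3463 at day 2, with 1950 and 2060 at day 3. Every array from day 3 on lay below every array of days 1 and 2. The fall was 2.24-fold in RANKL cells (log2 -1.17 ± 0.16, adjusted p = 0.00108) and 2.10-fold in control cells (-1.07 ± 0.17, adjusted p = 0.00369), the folds being on the scale of signal + 32. It was also the factor gene with the smallest adjusted p in the test for any difference among the 9 groups (0.00282), which called 10 of 48 genes beside 14.8% of all probe sets.

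Eef1d (160129_at, chr15:75894796-75909784) encodes eEF1 delta, part of the complex that recharges eEF1A with GTP. Its signals in RANKL cells were 1781 and 2413 at day 4 and 1917 and 2261 at day 5, against 3278 at day 1 and 3492 and 3695 at day 2. In control cells they were 2033 and 1705 at day 4 and 1884 at day 5, against 3487 at day 1 and 3014 and 2938 at day 2. Late and early arrays did not overlap in either arm, and the fall was 1.64-fold in RANKL cells (-0.72 ± 0.14, adjusted p = 0.00706) and 1.71-fold in control cells (-0.77 ± 0.16, adjusted p = 0.00997). Eef1akmt1 (100073_at, chr14:57549595-57571582), which encodes a methyltransferase that modifies a lysine of eEF1A, had 708 and 384 at day 4 and 515 and 717 at day 5 in RANKL cells, against 1286 at day 1 and 939 and 1245 at day 2. In control cells it had 769 and 641 at day 4 and 391 at day 5, against 1226 at day 1 and 1005 on both arrays of day 2. It fell 2.03-fold in RANKL cells (-1.02 ± 0.21, adjusted p = 0.00781) and 2.05-fold in control cells (-1.04 ± 0.23, adjusted p = 0.015). Its control call was lost without control day 1 replicate 1, day 4 replicate 2 or day 5 replicate 1 (adjusted p up to 0.15), and late and early arrays stood apart in both arms.

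**Figure D4:**
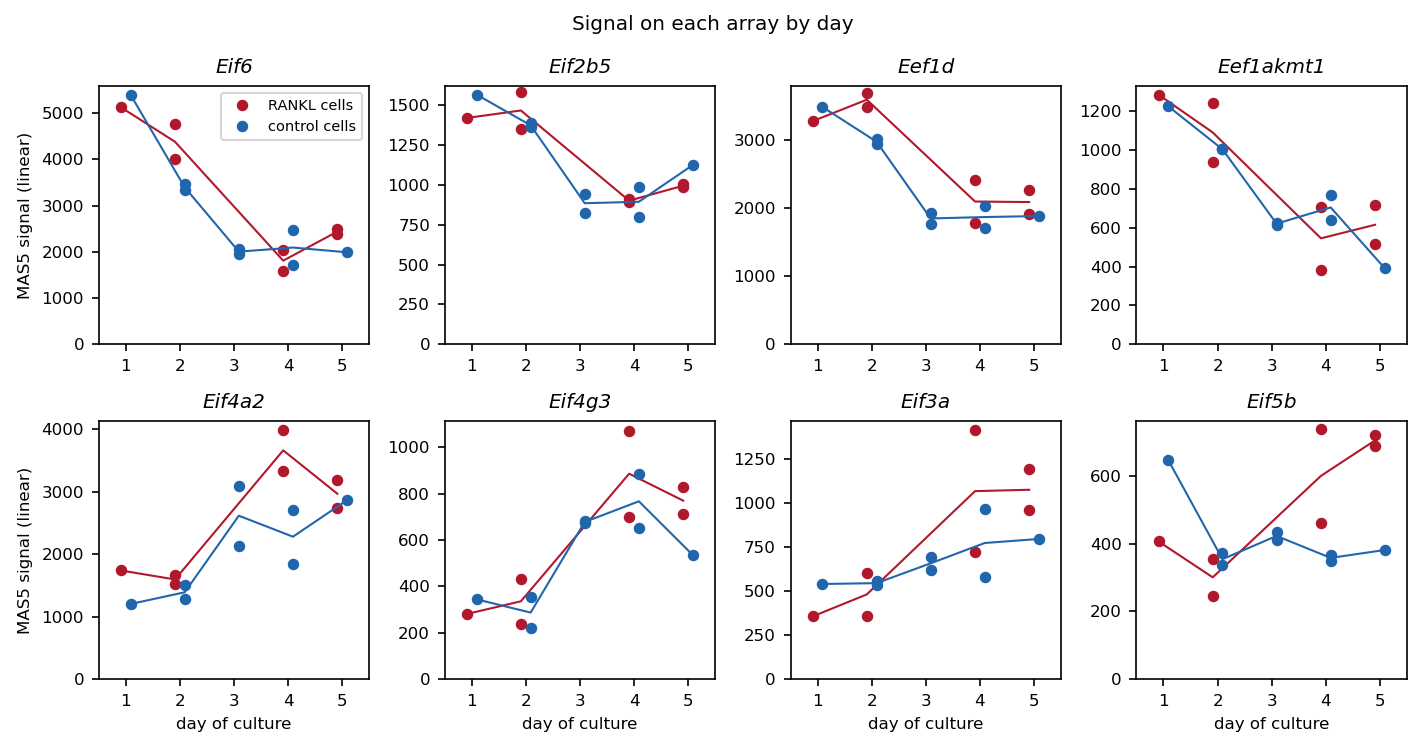
MAS5 signal (linear scale from 0) against day of culture for 8 factor genes, RANKL arrays in red and control arrays in blue, each point an array and each line through the daily means; RANKL has no day 3 array, so its line runs from day 2 to day 4. Eif6, Eif2b5, Eef1d and Eef1akmt1 step down and Eif4a2 and Eif4g3 step up after day 2 in both arms. Eif6 in control cells is also lower at day 2 than on the day 1 array. Eif5b rises with RANKL to 721 and 690 at day 5, while control stands at 381.

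Eif4a2 (93089_at, chr16:23107468-23114132) rose. Its signals in RANKL cells were 3995 and 3329 at day 4 and 3193 and 2742 at day 5, against 1739 at day 1 and 1525 and 1665 at day 2. In control cells they were 1845 and 2713 at day 4 and 2865 at day 5, against 1202 at day 1 and 1499 and 1281 at day 2. The groups did not overlap, and the rise was 1.96-fold in RANKL cells (0.97 ± 0.18, adjusted p = 0.00486) and 1.94-fold in control cells (0.96 ± 0.20, adjusted p = 0.0107). Its paralog Eif4a1, on a probe set whose suffix marks a selection by relaxed design rules, had 462 and 1152 at day 4 and 1309 and 1001 at day 5 in RANKL cells, against 645 at day 1 and 1242 and 1249 at day 2. These RANKL arrays overlapped. In control cells Eif4a1 had 875 and 989 at day 4 and 990 at day 5, against 1233 at day 1 and 1352 and 1323 at day 2. Those control arrays were lower late without overlap. Neither arm passed (0.03 ± 0.26 in RANKL cells and -0.41 ± 0.28 in control cells, limma, adjusted p = 0.964 and 0.448).

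Eif4g3 (96850_at, chr4:137991779-138207086) encodes a second form of the eIF4G scaffold. In RANKL cells it had 700 and 1071 at day 4 and 827 and 712 at day 5, against 281 at day 1 and 431 and 240 at day 2. In control cells it had 650 and 883 at day 4 and 534 at day 5, against 344 at day 1 and 219 and 354 at day 2. It rose 2.55-fold in RANKL cells (1.35 ± 0.24, adjusted p = 0.0041) and 1.95-fold in control cells (0.97 ± 0.26, adjusted p = 0.0375), with no overlap in either arm. The control call was lost without any of control day 2 replicate 1, either day 3 replicate or day 4 replicate 2 (adjusted p up to 0.113). Eif4g2, whose protein resembles the carboxy-terminal part of eIF4G, gave 376 to 523 with RANKL and 310 to 512 in control cells and did not pass in either arm (adjusted p = 0.975 and 0.92).

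Eif2b5 (96822_at, chr16:20498795-20509325) encodes the catalytic subunit of eIF2B, which reloads eIF2 with GTP. Its signals were 913 and 891 at day 4 and 1005 and 987 at day 5 in RANKL cells, against 1422 at day 1 and 1354 and 1583 at day 2. In control cells they were 991 and 799 at day 4 and 1127 at day 5, against 1569 at day 1 and 1388 and 1363 at day 2. It fell 1.505-fold in RANKL cells (-0.59 ± 0.13, adjusted p = 0.0106) and 1.45-fold in control cells (-0.54 ± 0.14, adjusted p = 0.032). A second probe set of the gene had the same sign and did not pass (-0.13 ± 0.21 in RANKL cells and -0.38 ± 0.23 in control cells, adjusted p = 0.768 and 0.354). With the gene's probe sets averaged the call was lost in both arms (-0.36 in RANKL cells and -0.46 in control cells, limma, adjusted p = 0.137 and 0.105). The control call was lost without control day 1 replicate 1, either day 2 replicate or day 4 replicate 2 (adjusted p up to 0.116).

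Of the other eIF2B subunit genes, 1 passed in RANKL cells and 1 in control cells. Eif2b1, the alpha subunit gene, had 626 and 572 at day 4 and 841 and 1057 at day 5 in RANKL cells, against 1105 at day 1 and 1162 and 1580 at day 2, and the groups did not overlap. It fell in RANKL cells (-0.68 ± 0.17, adjusted p = 0.0187) and had -0.54 ± 0.18 in control cells (adjusted p = 0.0882), and its RANKL call was lost without RANKL day 2 replicate 2, day 4 replicate 2 or day 5 replicate 1 (adjusted p up to 0.067). Eif2b4, the delta subunit gene, fell in control cells (-0.69 ± 0.18, adjusted p = 0.0315), where the late arrays had 1110, 698 and 824 and the early ones 1598, 1069 and 1362, which overlapped. In RANKL cells it had -0.48 ± 0.16 (adjusted p = 0.073), and its control call was lost without control day 1 replicate 1, day 2 replicate 2, day 4 replicate 2 or day 5 replicate 1 (adjusted p up to 0.175). Eif2b2, the beta subunit gene, did not pass in either arm (-0.26 ± 0.22 and 0.05 ± 0.24, adjusted p = 0.531 and 0.945).

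Of the eIF2 genes proper, Eif2s3y, the Y-linked copy of the gamma subunit gene, rose in RANKL cells. It had 547 and 694 at day 4 and 619 and 487 at day 5, against 184 at day 1 and 310 and 232 at day 2, so that every late array lay above every early one. The rise was 2.41-fold (1.27 ± 0.21, adjusted p = 0.00278), and in control cells the change was 0.57 ± 0.23 (adjusted p = 0.145). The suffix of its probe set (103674_f_at) marks probes shared within a gene family, so its signal may hold that of the near-identical X-linked copy. Eif2s3x itself had 0.35 ± 0.18 in RANKL cells and 0.21 ± 0.19 in control cells (adjusted p = 0.232 and 0.612). Eif2s2, the beta subunit gene, and Eif2a and Eif2d, which act in other routes of initiator tRNA delivery, did not pass in either arm.

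Among the eIF2 kinases, Eif2ak4 (GCN2) rose in RANKL cells. It had 186 and 269 at day 4 and 215 and 282 at day 5, against 101 at day 1 and 138 and 63.3 at day 2 (1.04 ± 0.25, adjusted p = 0.0182), and in control cells 0.46 ± 0.28 (adjusted p = 0.373). The call was lost without RANKL day 2 replicate 2 or day 4 replicate 2 (adjusted p up to 0.0594). Eif2ak3 (PERK) had 153, 152, 165 and 143 on the late RANKL arrays, against 57.6, 134 and 59.4 on the early ones. Those groups did not overlap, and the change of 0.82 ± 0.27 had an adjusted p of 0.063. Control Eif2ak3 signals ran from 58.2 to 113 with a change of 0.10 ± 0.29 (adjusted p = 0.9). Eif2ak1, which encodes the haem-regulated kinase, ran from 470 to 578 with RANKL and from 546 to 727 in control cells, and did not pass for time in either arm (adjusted p = 0.979 and 0.748).

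The start codon and subunit joining factors split. Eif5, which encodes the factor that triggers GTP hydrolysis on eIF2, had 1140 and 940 at day 4 and 1037 and 1017 at day 5 in RANKL cells, against 661 at day 1 and 476 and 487 at day 2, with no overlap. It rose 1.78-fold (0.83 ± 0.23, adjusted p = 0.0317), but the call was lost without any of the 6 RANKL arrays of days 2, 4 and 5 (adjusted p up to 0.0783), and control cells had 0.33 ± 0.25 (adjusted p = 0.514). Eif5b rose 1.78-fold in RANKL cells (0.83 ± 0.19, adjusted p = 0.0122), against -0.35 ± 0.21 in control cells (adjusted p = 0.347). Its second probe set had 0.59 ± 0.31 in RANKL cells (adjusted p = 0.246). Eif1b, a close relative of the start codon factor eIF1, fell in control cells to 1478 and 1369 at day 4 and 1456 at day 5, against 2243 at day 1 and 1756 and 2222 at day 2. That change of -0.54 ± 0.15 had an adjusted p of 0.0457 and was lost without any of 10 arrays, the 8 control arrays and both RANKL arrays of day 4 (adjusted p up to 0.147). With the replicate block its adjusted p was 0.0647. The paralogs Eif1a and Eif1ax, which encode the scanning factor eIF1A, did not pass in either arm.

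Of the 10 eIF3 subunit genes, 4 changed in RANKL cells (40%, beside 24.8% of bright probe sets) and 0 in control cells (beside 18.3%); 0 of the 48 genes passed the test of late minus early RANKL effect, so the arms are not shown to differ. In control cells 3 had an unadjusted p below 0.05 and the smallest adjusted p was 0.052 (Eif3j1). Eif3a, which encodes the largest subunit, rose to 721 and 1414 at day 4 and 1192 and 958 at day 5 with RANKL, against 356 at day 1 and 604 and 357 at day 2 (2.44-fold, 1.29 ± 0.26, adjusted p = 0.0078). In control cells it had 578 and 967 at day 4 and 796 at day 5, against 540 at day 1 and 557 and 532 at day 2 (0.49 ± 0.29, adjusted p = 0.355). Late signals were above early ones on every array of both arms. The other 3 fell in RANKL cells: Eif3b, the second scaffold subunit, by 1.60-fold (-0.67 ± 0.15, adjusted p = 0.0126), the peripheral subunit gene Eif3k by 1.52-fold (-0.61 ± 0.17, adjusted p = 0.0302) and Eif3d, whose protein can bind the cap, by 1.47-fold (-0.56 ± 0.13, adjusted p = 0.0169). Eif3b had 4138, 3199, 4000 and 4444 on the late RANKL arrays, against 7171, 6081 and 4940 on the early ones. Eif3k had 7755, 5721, 4955 and 5837 late, against 9420, 7764 and 10130 early, and Eif3d had 4867, 4573, 4698 and 4919 late, against 7648, 6095 and 6821 early. The late and early arrays of all 3 genes stood apart, although Eif3k only by 7755 against 7764.

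These falls rested on few arrays. The Eif3b call was lost without RANKL day 1 replicate 1 (adjusted p = 0.0876), the Eif3d call without that array or RANKL day 5 replicate 1 (up to 0.0794), and the Eif3k call without RANKL day 1 replicate 1, day 2 replicate 2, day 4 replicate 2 or day 5 replicate 1 (up to 0.0934). With the replicate block Eif3k had an adjusted p of 0.0509, and it also missed with quantile normalization, with day 2 alone as early and with the beta-actin covariate (0.0626, 0.0679 and 0.0552). A dim second probe set of Eif3b had 0.00 ± 0.12 and did not pass (adjusted p = 0.999). In control cells the changes were -0.54 ± 0.17 for Eif3b, -0.39 ± 0.18 for Eif3k and -0.22 ± 0.15 for Eif3d (adjusted p = 0.0639, 0.22 and 0.442). The probe sets of Eif3e disagreed. The brighter one had 0.71 ± 0.26 in RANKL cells (adjusted p = 0.0922), while its dim second probe set fell (-1.17 ± 0.31, adjusted p = 0.0269), so no direction is given for this gene. On the brighter one the control day 1 array, at 221, was the lowest of all 15. Eif3c, Eif3f, Eif3l and Eif3m did not pass in either arm.

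In the cap-binding group the third called gene was Eif4e2, which encodes the eIF4E homologue 4EHP, a cap-binding protein that does not bind eIF4G. In RANKL cells it had 402 and 259 at day 4 and 292 and 447 at day 5, against 932 at day 1 and 451 and 824 at day 2. The groups stood apart only by 447 against 451. It fell 2.11-fold (-1.07 ± 0.25, adjusted p = 0.0154), and in control cells it had -0.49 ± 0.28 (adjusted p = 0.329). The call was lost without RANKL day 1 replicate 1, day 2 replicate 2, day 4 replicate 2 or day 5 replicate 1 (adjusted p up to 0.0966). Its probe set is of the family type, and a second probe set had -0.29 ± 0.26 in RANKL cells (adjusted p = 0.547). The cofactor gene Eif4b did not pass in either arm (adjusted p = 0.102 and 0.224).

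The inhibitors of eIF4E did not pass. Eif4ebp1, the gene of the main mTOR-controlled inhibitor, ran from 670 to 1714 with RANKL and from 419 to 1469 in control cells, with the 2 arrays of control day 3 at 1109 and 419. Its culture-time changes were 0.43 ± 0.29 and -0.26 ± 0.32 (adjusted p = 0.395 and 0.709). Eif4ebp2 ran from 1288 to 2103 and from 1252 to 2619, with changes of 0.38 ± 0.16 and 0.27 ± 0.18 (adjusted p = 0.147 and 0.42). Of the elongation factor genes, Eef2 gave 10178 to 15282 with RANKL and 10446 to 16882 in control cells, with changes of 0.01 ± 0.15 and 0.31 ± 0.17 (adjusted p = 0.989 and 0.303). Eef1a1 had -0.30 ± 0.22 and 0.15 ± 0.24 (adjusted p = 0.437 and 0.801), and Eef1a2 and Eef1b2 did not pass either. Eef2k, the kinase gene that restrains eEF2, had 22.7 to 120 on the late control arrays and 16.6 to 26.7 on the early ones, which overlapped. Its change of 1.07 ± 0.37 (adjusted p = 0.0905) was on dim signals, with 1 array over 100. It passed without control day 4 replicate 2 (1.44, adjusted p = 0.0211), and over the alternatives it ran from 0.59 to 1.83.

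Between neighbouring days, genes were called only from day 2 to the next day measured. In steps between neighbouring days, added after the values were seen, RANKL cells had 0 of 48 genes called from day 1 to day 2 (all probe sets 0.0403%), 11 from day 2 to day 4 (12.5%) and 0 from day 4 to day 5 (0.636%). Genes with an unadjusted p below 0.05 in these steps numbered 4, 20 and 4 (all probe sets 10.7%, 25.5% and 11.7%). Control cells had 0 called from day 1 to day 2 (0%), 5 from day 2 to day 3 (7.08%), 0 from day 3 to day 4 (0%) and 0 from day 4 to day 5 (0.0403%), with unadjusted counts of 4, 14, 1 and 4 (5.92%, 22.1%, 4.62% and 11.9%). The 5 control genes were Eif4g3 (1.19 ± 0.30), Eif4a2 (0.88 ± 0.23), Eif6 (-0.75 ± 0.20), Eef1d (-0.68 ± 0.18) and Eif2b5 (-0.62 ± 0.16), and all 5 were also among the 11 of RANKL cells. In the RANKL step the largest changes were Eif4g3 at 1.34 ± 0.30, Eif4a2 at 1.18 ± 0.23 and Eif6 at -1.27 ± 0.20 (adjusted p = 0.015, 0.00634 and 0.00251). Steps that meet at a day share its arrays, and the steps from or to a day with 1 array are the least precise. Their counts of 0 therefore do not place every change after day 2. From day 1 to day 2, Eif6 had -0.66 ± 0.24 and Eif2b4 -0.40 ± 0.25 in control cells, and Eif4e2 had -0.58 ± 0.39 in RANKL cells. By the labels, the medium was given again on day 3, which falls within the RANKL step; the order of that change and the day 3 RNA extraction is not given in the sources used here.

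A 3' to 5' signal ratio, used as a guide to RNA quality, moved with culture time in control cells. Whether RNA quality itself differed was not tested. The ratio of the manufacturer's 3' to 5' beta-actin probe sets was 1.01 to 1.16 on the late control arrays and 1.17 to 1.25 on the early ones, so that ratio and time cannot be told apart there. In RANKL cells it was 1.02 to 1.34 late and 1.19 to 1.39 early, which overlapped. The Gapdh ratio was 0.84 to 0.90 late and 0.92 to 1.01 early in control cells. In RANKL cells the Gapdh ratio was 0.83 to 0.96 late and 0.89 to 1.09 early, which overlapped. With the beta-actin ratio as a covariate, added after the values were seen, 10 factor genes stayed called with culture time in RANKL cells and 1, Eif6, in control cells, while the shares of all probe sets were 8.74% and 1.36%. The 24 estimates of called genes kept their sign and shifted by 0.004 to 0.313, 4 of them by more than 1 SE, with Eif6 at -1.35 in RANKL cells and -1.36 in control cells and Eif4a2 at 0.90 and 0.85. Without RANKL day 5 replicate 2, the array apart on the first component, 16 genes were called in RANKL cells. Counts with 1 array left out ran from 11 to 17 in RANKL cells, with 11 without RANKL day 2 replicate 2, day 4 replicate 2 or day 5 replicate 1. In control cells they ran from 4 to 8, with 4 without control day 1 replicate 1 and 5 without either day 2 replicate or day 4 replicate 2.

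The sequence just upstream of the genes was examined because members moved in opposite directions at the same time. RefSeq promoters in GRCm38.p6 matched 40 of the 48 genes, and Eif6, Eef1d and Eef1akmt1 were not among them. In the 250 bases before the most upstream start, the E-box CACGTG, which Myc and MiT factors bind, stood in 7 of 40 (17.5%), beside 6.04% of the 27025 promoters of all genes. CCGGAAG, a core bound by Ets factors, read on both strands, stood in 7 of 40 (17.5%), beside 7.07%. TATAAA, the TATA box core, read on both strands, stood in 4 of 40 (10%), beside 13%, and the median GC content was 59.8%, beside 52%. That background goes beyond the 8251 genes of the series, and the shares were not compared at like brightness or GC content. Among members called with culture time, 0 of the 7 that rose and 2 of the 8 that fell held CACGTG, as did 5 of the 25 not called, and the counts for CCGGAAG were the same. Upstream bases outside the gene are printed 5′ to 3′ on the gene's strand for a pair that fell and holds a motif (Eif1b, Eif3k) and for a pair called in both arms, falling and rising, that holds neither (Eif2b5, Eif4a2). Capitals mark CACGTG and CCGGAAG. A match describes letters and is no evidence of binding.
Eif1b, chr9:120492356-120492605, plus strand: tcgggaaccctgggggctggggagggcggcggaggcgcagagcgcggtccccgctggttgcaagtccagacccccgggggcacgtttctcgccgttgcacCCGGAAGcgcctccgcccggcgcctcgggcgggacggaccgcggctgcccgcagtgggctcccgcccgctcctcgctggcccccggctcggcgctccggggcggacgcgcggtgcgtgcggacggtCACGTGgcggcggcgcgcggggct
Eif3k, chr7:28981891-28982138, minus strand: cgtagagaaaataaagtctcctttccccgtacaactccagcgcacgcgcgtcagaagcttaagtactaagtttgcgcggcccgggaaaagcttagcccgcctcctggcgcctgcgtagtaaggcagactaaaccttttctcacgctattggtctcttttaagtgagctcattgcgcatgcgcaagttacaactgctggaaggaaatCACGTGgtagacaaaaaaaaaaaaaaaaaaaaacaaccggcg
Eif2b5, chr16:20498567-20498794, plus strand: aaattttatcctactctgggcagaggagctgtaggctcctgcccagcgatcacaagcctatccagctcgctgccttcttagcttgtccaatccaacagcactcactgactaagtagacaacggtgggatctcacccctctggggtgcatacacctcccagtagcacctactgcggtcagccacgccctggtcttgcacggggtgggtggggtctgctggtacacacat
Eif4a2, chr16:23107218-23107467, plus strand: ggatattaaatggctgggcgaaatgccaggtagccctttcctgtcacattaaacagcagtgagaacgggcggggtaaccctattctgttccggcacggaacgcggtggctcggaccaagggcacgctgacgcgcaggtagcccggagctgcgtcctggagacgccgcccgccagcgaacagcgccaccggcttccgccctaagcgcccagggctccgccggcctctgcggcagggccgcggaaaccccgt
The CACGTG of Eif1b begins 24 bases before the most upstream start and that of Eif3k 44 bases before it. For Eif3k, 248 of the 250 bases lie outside the gene and are printed, so its distance is not counted from the printed end.

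Other genes of the translation pathway, in lists that hold none of the 48, were read in the same fit. With RANKL, 0 genes of any of the 5 lists passed, over the 4 days, on a single day or as late minus early. Over the 4 days, 2 of 11 differences in the eIF2 list were positive (median -0.296) and 4 of 21 among the synthetases (-0.209). At day 5 these medians were -0.677 and -0.466. Without RANKL day 5 replicate 2 they were -0.239 and -0.079. In the cap, termination and mitochondrial lists 12 of 19, 4 of 8 and 4 of 5 were positive over the 4 days (medians 0.036, -0.019 and 0.117). With culture time, some members of the list for phosphorylated eIF2 and its readout rose. Phosphorylation itself was not measured. The list holds regulators of eIF2 phosphorylation as well as genes whose messages or transcription follow it. Of its 11 genes, 5 rose and 0 fell in RANKL cells, and 6 rose and 0 fell in control cells, with list medians of 0.64 and 0.74. These are 45.5% and 54.5% of the list, beside 8.98% and 5.98% of all probe sets called higher, and beside 24.8% and 18.3% of bright probe sets called in either direction. On RANKL day 5 replicate 2, the array apart on the first component, this list lay near early levels. There Atf4 had 3600, against 8428 in replicate 1, and Asns, the asparagine synthetase gene, 4573 against 10596. Without that array the median change of the list with culture time was 0.863 in RANKL cells, and it stayed at 0.741 in control cells. Trib3, a pseudokinase gene, had 78.8 to 985 on late RANKL arrays and 34.1 to 142 on early ones, which overlapped (2.21 ± 0.58, adjusted p = 0.0242), and in control cells 857 to 1557 late and 167 to 176 early (2.65 ± 0.63, adjusted p = 0.0216). Ddit3, which encodes the transcription factor CHOP, rose by 2.18 ± 0.59 and 2.85 ± 0.64 (adjusted p = 0.0277 and 0.0166). Ppp1r15a, whose protein directs the removal of phosphate from eIF2, rose by 0.93 ± 0.28 in RANKL cells and 1.75 ± 0.31 in control cells (adjusted p = 0.0466 and 0.00519). Atf4, the transcription factor translated when eIF2 is phosphorylated, rose in control cells (1.11 ± 0.28, adjusted p = 0.0263).

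Of 19 represented genes of the cap complex and its mTOR control, 4 rose and 2 fell in RANKL cells, and 2 rose and 1 fell in control cells. These are 31.6% and 15.8% of the list, near the 24.8% and 18.3% of bright probe sets. Pdcd4, which encodes an inhibitor of eIF4A, had 409 to 916 on late RANKL arrays, against 85.5 to 129 on early ones (2.18 ± 0.29, limma, adjusted p = 0.00107). On control arrays Pdcd4 had 158 to 323 late and 70.1 to 106 early. These were also higher late without overlap, and did not pass. Mknk1, which encodes a kinase of eIF4E, rose in both arms (1.61 ± 0.29 and 1.25 ± 0.32, adjusted p = 0.00449 and 0.0305), and so did Ddit4, which encodes an inhibitor of mTOR complex signalling (1.27 ± 0.38 and 1.83 ± 0.42, adjusted p = 0.0461 and 0.0182). Ddit4 signals were mostly dim. In RANKL cells they were 82.1, 11.6, 219 and 63.3 late and 14.3, 11.8 and 5.51 early, which overlapped. In control cells they were 136, 103 and 259 late and 50.2, 10.2 and 10.2 early. Mtor itself fell in RANKL cells to 336 to 448 late, against 548 to 686 early (-0.63 ± 0.15, limma, adjusted p = 0.0175). On control arrays Mtor had 327 to 507 late and 511 to 630 early, also lower late without overlap, and did not pass. In control cells Pabpc4, a poly(A)-binding protein gene, fell (-0.96 ± 0.25, adjusted p = 0.0323).

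Among 21 aminoacyl-tRNA synthetase and scaffold genes, Nars, which is also in the eIF2 list, rose and Aimp2 and Farsa fell in both arms, and Lars rose in control cells. That is 14.3% and 19% of the list, below the 24.8% of bright probe sets in RANKL cells and near the 18.3% in control cells. The median change of the list was 0.075 in RANKL cells, or 0.241 without RANKL day 5 replicate 2, and 0.334 in control cells. Aimp2, a scaffold of the synthetase complex, had 1434 to 2096 on late RANKL arrays, against 4264 to 5891 on early ones (-1.57 ± 0.15, adjusted p = 0.000323), and fell by 1.48 in control cells (adjusted p = 0.00082). Of 8 termination, recycling and hypusination genes, Abcf2 fell in both arms (-0.74 ± 0.12 and -0.63 ± 0.13, adjusted p = 0.00229 and 0.0104). Dohh, the gene of the hydroxylase that completes hypusine on eIF5A, fell in RANKL cells (-1.03 ± 0.18, limma, adjusted p = 0.004). On control arrays Dohh had 987 to 1410 late and 1628 to 2113 early, also lower late without overlap, and did not pass. Of 5 mitochondrial factors, Tufm, the mitochondrial elongation factor gene, fell in both arms (-0.61 ± 0.17 and -0.79 ± 0.19, adjusted p = 0.0329 and 0.021). The counts were 25% and 12.5% of the termination list and 40% and 60% of the mitochondrial one in RANKL and control cells, from few genes. Mtif2 rose in RANKL cells (1.18 ± 0.22, adjusted p = 0.00546), and Gfm1 and Mtrf1l fell in control cells (-0.75 ± 0.19 and -1.25 ± 0.27, adjusted p = 0.0243 and 0.0124). Mtrf1l was dim, with control signals of 42.2 to 91.2 early and 6.52 to 8.97 late.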

How the data were processed

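RNA of 15 samples was hybridised to Affymetrix mouse arrays, 1 sample each. The authors deposited probe set intensities on a linear scale, made with MAS5 per the submitters' processing notes; the version is not given in the sources used here. The table shows a 2% trimmed mean of 500 on each array, so it had been scaled, and no further normalization was applied. Of 12488 probe sets, 66 manufacturer controls were left out, and 12422 were tested as log2(signal + 32) with no filter on dim signals. The platform annotation lists 1 gene for 10833 of them, several for 396 and none for 1193; 1 more Eif probe set lists several genes and was not used. All 48 genes matched RefSeq GRCm38.p6.

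With limma 3.58.1 in R 4.3.3 (lmFit, eBayes with intensity trend) the 9 groups each got a mean, leaving 6 residual and adding 5.39 prior degrees of freedom. For 3 groups there is 1 array, whose spread is taken to be that of the rest, and the number of arrays limits the precision. Tests were two-sided with Benjamini-Hochberg adjustment over all probe sets within each of 8 comparisons and an F test, at a threshold of 0.05. Changes are log2 differences ± SE, and folds are on the signal + 32 scale, which understates changes of dim genes. The procedure was tested on simulated data with 200 changed probe sets. Of changes of 1 log2 it recovered 91.5% for the RANKL effect over the 4 days. At days 1, 2, 4 and 5 it recovered 0%, 31%, 40% and 13%. For late minus early it recovered 7%, and for culture time 70% in RANKL cells and 64.5% in control cells. Changes of 0.5 log2 were recovered at 13.5% over the 4 days and at 0% elsewhere. Counts of 0 thus come from tests of unequal sensitivity. With culture time the real data had 1839 probe sets called in RANKL cells and 1348 in control cells. With so many calls the adjustment is less strict than with 200 changed probe sets. The simulated shares therefore do not give the sensitivity of the culture-time tests, where a change of -0.54 (Eif1b) was called.

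The 48 genes, the gene lists and the named genes were chosen with earlier results of these data known. Named are genes past the threshold, the 3 largest rises and falls per comparison, a fixed panel of well-known factors and up to 4 called genes per list. The alternatives were other pseudocounts, quantile normalization, brighter probe sets only, no trend, a replicate block, averaged probe sets, other day definitions and each array left out. Where the array left out was the only one of its group, its day dropped out of the comparison. For RANKL effects that day dropped out of both arms. Equal replicate numbers did not pair arrays: over 15 pairs of groups, replicate differences correlated at -0.169 to 0.119.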

Additional observations from a re-analysis of the deposited data

How the results depend on the processing

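The count of 0 factor genes for the RANKL effect, over the 4 days, on each day and as late minus early, was 0 in all alternatives run, while in the reported fit (limma) unadjusted p-values under 0.05 were found for 1 to 6 genes. For culture time in control cells the count of 8 became 4 with no intensity trend, 4 with day 2 alone as early, and 1 with the beta-actin ratio as a covariate, and 4 to 8 with 1 array left out. For culture time in RANKL cells 16 became 10 with that covariate and 11 to 17 with 1 array left out. For any difference among the 9 groups 10 became 5 with no intensity trend, 6 with the replicate block, 4 with the beta-actin covariate and 5 to 10 with 1 array left out. The lowest of these, 5, came without control day 2 replicate 1, control day 3 replicate 1 or RANKL day 2 replicate 2. The replicate block moved no other count by over 1.5 times, and gave 16 in RANKL cells (15 of them shared, Eif3k lost) and 7 in control cells (Eif1b lost) for culture time. By neighbouring days the culture-time counts were 0 (day 1 to 2), 11 and 0 (day 4 to 5) in RANKL cells and 0, 5, 0 and 0 in control cells; these steps and the covariate were chosen after seeing the data. The cause of these shifts was not tested.

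Of 24 calls of a gene in a culture-time comparison, 9 held in all alternatives run for them. These were Eif5b, Eif2s3y, Eif3a, Eif4a2, Eif4g3, Eif6, Eef1d and Eef1akmt1 in RANKL cells and Eif6 in control cells. Of 584 checks of a called gene under an alternative, 81 lost the call and 0 changed its sign. Among the named genes the sign changed for uncalled values of late minus early RANKL effect. Eif4enif1 gave 0.004 with day 2 alone as early and -1.106 to 0.004 with 1 array left out, and Eef2k gave -1.02 to 0.075, against -0.81 and -0.65. The values 0.004 and 0.075 came from fits in which day 1 or day 5 dropped out of both arms. Both probe sets are dim. The median RANKL difference of the 48 genes also turned sign. It was -0.011 without control day 5 replicate 1, which left days 1, 2 and 4. At day 2 it was -0.002 without RANKL day 2 replicate 1. At day 4 it was -0.025 without control day 4 replicate 1, -0.012 without RANKL day 4 replicate 2 and -0.011 with quantile normalization. With 1 or 2 arrays a group, small changes and the dim genes Eif4e, Eif4h, Eif5a and Eef1g are poorly measured, and an uncalled gene is not shown to be stable.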
